A study of Mus musculus with 6 samples.

Results

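Gluconeogenesis in the fasted liver was examined through 10 genes: the enzymes Pck1, G6pc, Fbp1, Pcx, Mdh1 and Ldha, the glucose-6-phosphate transporter Slc37a4, the glycerol channel Aqp9 and glycerol kinase Gyk, and the coactivator Ppargc1a. They were chosen by name, as all array probes whose deposited symbol was one of these 10, which gave 16 of 45281 probes. Of these, 12 probes passed the detection filter and were tested, at least 1 for each of the 10 genes, out of 14345 probes of 10055 genes tested in all. The livers came from 3 knockout mice deficient in Creb3l3 and 3 wild-type littermates. All 6 were male C57BL/6 mice on normal chow that had fasted for 24 h, and the RNA of each mouse was hybridised to 1 Illumina WG-6 bead array. Creb3l3 encodes CREBH, a membrane-anchored transcription factor of the basic leucine zipper class found in hepatocytes. The kind of deletion and the age of the mice are not given in the sources used here. The comparison is knockout (KO) against wild type (WT), and it asks how transcripts of hepatic glucose production stand in the fasted liver when this factor is missing.

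Gluconeogenesis builds glucose from lactate, amino acids and glycerol, and in a long fast, when liver glycogen is spent, it becomes the main source of blood glucose. Lactate enters as pyruvate, which is carboxylated in mitochondria to oxaloacetate. The carbon is carried to the cytosol, is converted to phosphoenolpyruvate and runs back through the reversible steps of glycolysis. It leaves as glucose after fructose-1,6-bisphosphate and glucose-6-phosphate lose a phosphate. Glycerol enters further along, as glycerol 3-phosphate. Glucagon, through cyclic AMP and the factor CREB, raises transcription of Pck1, G6pc and Ppargc1a in fasting, and insulin lowers it.

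The arrays were not of equal quality. Probes counted as detected (detection p below 0.05) numbered 11846, 15867 and 4302 on KO arrays 1, 2 and 3, against 15504 to 16224 on the WT arrays, and 2264 by chance. Mean deposited signals were 149, 246 and 87.3 arbitrary units on the KO arrays and 219 to 252 on the WT arrays. KO arrays 1 and 3 were thus dim as a whole, and a deposited signal below WT on them does not by itself mark a lower transcript. Fbp1, for example, had 1340 on KO array 1 against 2654 to 3182 in WT. Its log2 signal there after normalization without KO array 3 was 11.65, against 11.23 to 11.55 in WT. KO array 3 correlated with the others across probes at 0.676 to 0.697, and the other 5 arrays with each other at 0.971 to 0.992. The members are therefore given for those 5 arrays first and then for all 6. Among the 5, KO array 1 was the weakest, with the fewest detected probes. Normalized with all 6, its highest correlation with any array was 0.975, and that of KO array 2 was 0.988. Creb3l3 itself had signals of 148, 283 and 87.9 on KO arrays 1, 2 and 3, against 1201, 949 and 929 on WT arrays 1, 2 and 3. The KO signals were the lower ones on all 3 arrays (log2 change -2.32 ± 0.15 (SE) in the 5 arrays, limma adjusted p = 0.00271). Across all 6 arrays the change was -2.72 ± 0.39 and was not called (limma adjusted p = 0.574). The sources used here do not say whether its probe lies within the deletion.

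The sequences before the transcription start are shown for Pck1, the 1 member that was called, and for Ldha, Ppargc1a and G6pc, so that the letters of the cyclic AMP response element (CRE), the site of CREB-type factors, can be compared between them. They are RefSeq sequences of build GRCm38.p6, 250 bases each, read 5′ to 3′ on the strand of the gene. Capitals mark a CRE half-site (CGTCA), a full CRE (TGACGTCA), the CRE variant TTACGTCA or an insulin response sequence (CAAAACA), on either strand. The half-site lies inside both longer CRE forms.
Pck1, chr2:173152823-173153072, plus strand: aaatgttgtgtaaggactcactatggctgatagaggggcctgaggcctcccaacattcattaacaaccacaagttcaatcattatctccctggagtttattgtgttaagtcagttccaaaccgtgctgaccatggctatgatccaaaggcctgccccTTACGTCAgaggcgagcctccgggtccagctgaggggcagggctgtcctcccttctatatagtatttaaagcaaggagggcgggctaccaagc
Ldha, first of its 2 listed starts, chr7:46845554-46845803, plus strand: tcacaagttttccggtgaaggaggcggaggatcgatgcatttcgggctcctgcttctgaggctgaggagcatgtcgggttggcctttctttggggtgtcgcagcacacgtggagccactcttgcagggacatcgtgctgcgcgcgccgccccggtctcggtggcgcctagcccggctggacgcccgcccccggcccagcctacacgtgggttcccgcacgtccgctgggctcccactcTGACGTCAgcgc
Ppargc1a, chr5:51567726-51567975, minus strand: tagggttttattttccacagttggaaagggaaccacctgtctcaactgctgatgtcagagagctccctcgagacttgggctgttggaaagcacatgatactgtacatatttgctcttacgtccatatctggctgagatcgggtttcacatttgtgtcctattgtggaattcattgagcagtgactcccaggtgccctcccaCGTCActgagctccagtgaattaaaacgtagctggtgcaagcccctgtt
G6pc, chr11:101367466-101367715, plus strand: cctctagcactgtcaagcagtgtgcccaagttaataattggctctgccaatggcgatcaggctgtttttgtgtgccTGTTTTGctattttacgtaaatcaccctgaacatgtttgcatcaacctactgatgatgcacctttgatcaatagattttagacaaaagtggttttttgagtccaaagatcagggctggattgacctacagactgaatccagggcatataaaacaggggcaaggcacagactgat
In the Pck1 window TTACGTCA began at position -93, counted back from the start with -1 as the base just before it. This variant was searched as the CRE of the Pck1 type, so its match in the Pck1 window was fixed in advance. It was found in 0.447% of 32851 windows of the same length. Ldha held the full CRE at -12, a form present in 1.55% of windows. Ppargc1a held a half-site at -49, as did 17.8% of windows. Among the 15 windows of the members 6 held it (1 of Pck1, both of Ldha, 1 of Ppargc1a and 2 of 3 of Slc37a4, among which windows overlap). G6pc had no half-site in this window and held the insulin response sequence at -174, in reverse as TGTTTTG, which 5.56% of windows held. Other letters close to a CRE were not searched and stay unmarked. The G6pc window holds such a stretch, ttacgtaa, which shares TTACGT with the Pck1 variant, so it cannot be said to lack CRE-like letters. These matches describe letters and are not evidence of binding.

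In the KO liver, Pck1 fell and the other 9 members did not pass the test. Pck1 fell 3.33-fold, and its second probe fell too. Log2 changes near -1 that missed the threshold were measured for Gyk and Ldha, and Fbp1, Slc37a4 and Mdh1 lay at or above 0. In the 5 arrays, limma with Benjamini-Hochberg adjustment over all 14345 probes thus called 0 of 10 genes higher and 1 of 10 lower, where 0.0696% and 0.269% of all genes tested were called higher and lower. By sign, 7 of the 10 lay below 0, beside 52.2% of all genes. At an unadjusted p under 0.05, 5 were lower (Pck1, Ldha, Gyk, G6pc and Aqp9) and 0 higher, beside 7.02% and 4.95% of all genes. The median log2 change of the 10 was -0.47, and that of all genes tested was -0.01.

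Across all 6 arrays 0 of 10 members were called, as were 0% of all genes, the smallest adjusted p of any probe being 0.375. At an unadjusted p under 0.05, 4 of the 10 were lower there (Pck1, Ldha, Gyk and G6pc) and 0 higher, beside 2.98% and 0.649% of all genes. The median log2 change was -0.71 for the members and -0.25 for all genes in that fit. By sign, 8 of the 10 lay below 0, beside 70.2% of all genes.

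**Figure D1:**
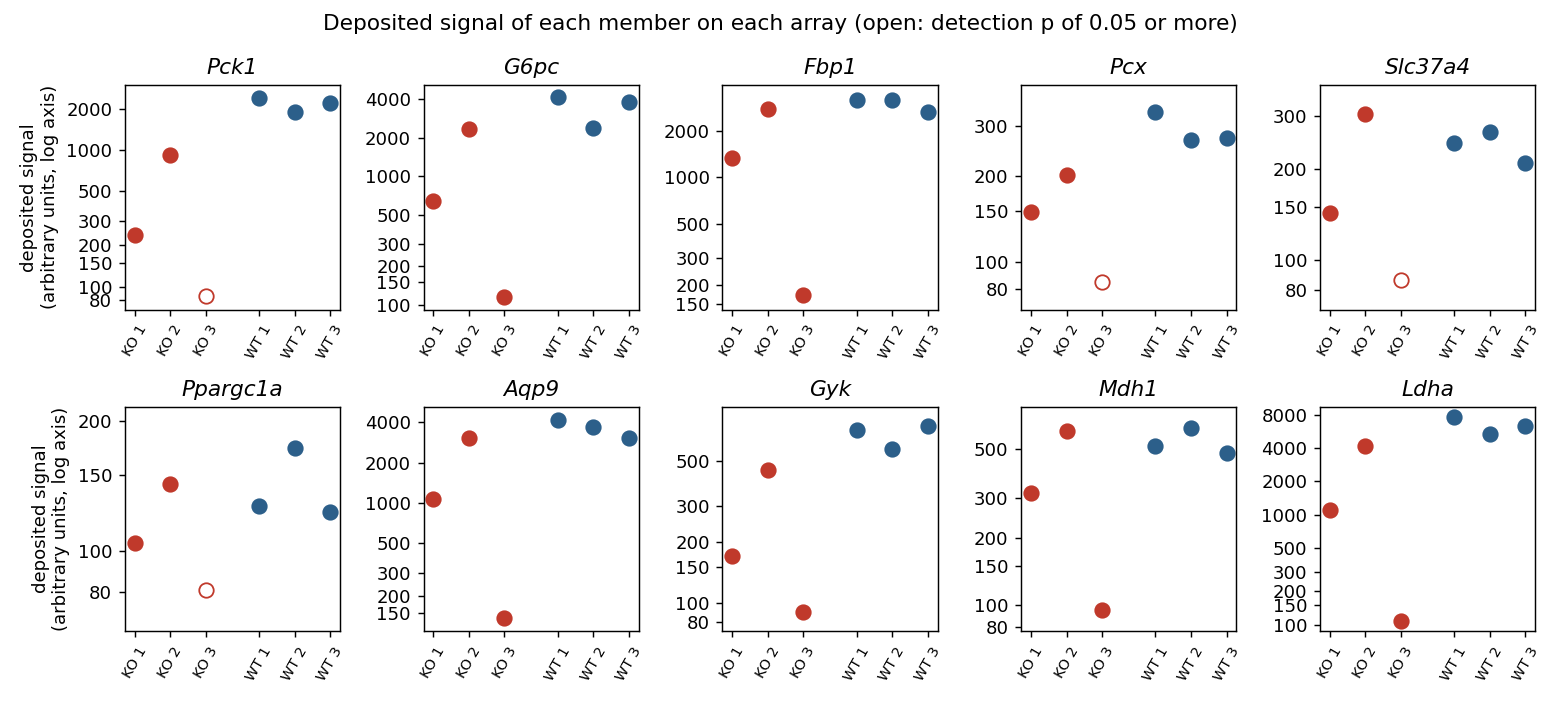
Deposited signal, in arbitrary units on a log axis that differs between panels, of the brightest probe of each of the 10 members on each array, KO in red and WT in blue, with open points where the detection p was 0.05 or more. KO array 3, dim as a whole, is the lowest point in every panel. For Pck1 the other KO points, 240.5 and 922, lie below all WT points, 1884 to 2383.

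Pck1 encodes cytosolic phosphoenolpyruvate carboxykinase, which turns oxaloacetate into phosphoenolpyruvate and is a control point of the pathway. Its brightest probe had signals of 240.5, 922 and 84.9 on KO arrays 1, 2 and 3, against 2383, 1884 and 2189 on WT arrays 1, 2 and 3. Every KO signal lay below every WT signal, and on KO array 3 the probe was not detected. After normalization its log2 signal in the 5 arrays was 8.83 and 9.39 on KO arrays 1 and 2, against 10.77, 10.76 and 11.0025 on WT arrays 1, 2 and 3. The groups did not overlap, and the mean was 9.11 ± 0.39 (SD, n = 2) in KO and 10.85 ± 0.14 (SD, n = 3) in WT livers. The log2 change was -1.73 ± 0.21 (SE; limma adjusted p = 0.0227), with a 95% confidence interval of -2.21 to -1.26. Across all 6 arrays it was -3.19 ± 1.21 (limma adjusted p = 0.653).

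The second Pck1 probe had signals of 262, 747 and 84.1 on KO arrays 1, 2 and 3, against 1448, 1308 and 1314 on WT arrays 1, 2 and 3. Here too every KO signal was the lower one. Its log2 change in the 5 arrays was -1.12 ± 0.16 (SE; limma adjusted p = 0.0399), and it stood at 9.03 and 9.05 on KO arrays 1 and 2, closer together than at the brighter probe. Across all 6 arrays it was -2.58 ± 1.20 (limma adjusted p = 0.653). The 2 probes agreed in direction and differed in size.

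The call of Pck1 was lost without any 1 of the WT mice. Without WT replicate 1, 2 or 3 its adjusted p by limma was 0.103, 0.134 and 0.11, while its log2 change stayed between -1.78 and -1.65. With KO replicate 2 as the only KO mouse the change was -1.45, and with KO replicate 1 as the only one it was -2.02. At the second probe these changes were -1.10 and -1.14. Such fits assume that the lone KO array varies like the WT arrays, so only the sizes are given. Over 18 other settings the direction was the same in 18, and Pck1 was called in 12, including both fits with a lone KO array. The second probe was called in 7 of 17, including the fit with KO replicate 1 as the only KO mouse. Calls with a lone KO array carry no weight. It lost its call, among other settings, with a replicate block (limma adjusted p = 0.181) and with array weights (limma adjusted p = 0.111). Without WT replicate 1, 2 or 3 its limma adjusted p was 0.149, 0.199 and 0.271.

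**Figure D2:**
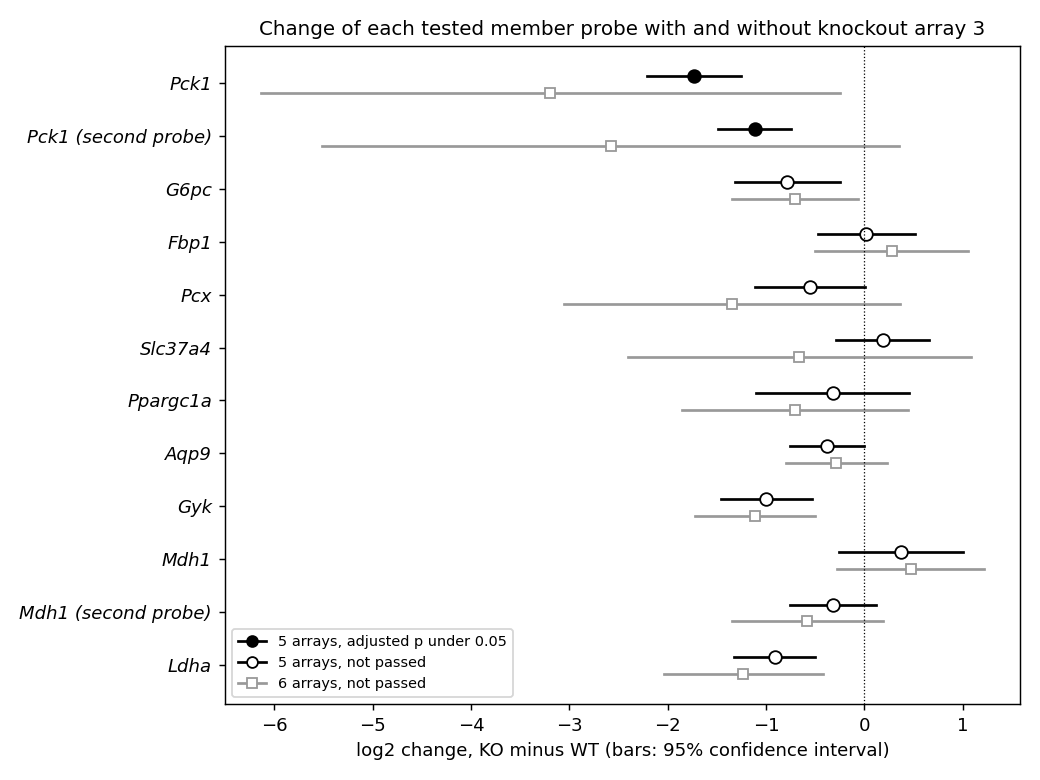
Log2 change, KO minus WT, of the 12 tested member probes with 95% confidence intervals, for the 5 arrays without KO replicate 3 (black) and for all 6 (grey). Only both Pck1 probes are filled (adjusted p under 0.05 in the 5 arrays), at -1.73 and -1.12, and the grey intervals of Pck1, Pcx and Slc37a4 are the wide ones.

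Entry of lactate and pyruvate was represented by Ldha, Pcx and Mdh1. Ldha, a lactate dehydrogenase subunit that interconverts lactate and pyruvate, had signals of 1107, 4223 and 108 on KO arrays 1, 2 and 3, against 7630.0, 5372 and 6315 on WT arrays 1, 2 and 3. The groups did not overlap, also after normalization, with 11.39 and 11.72 on KO arrays 1 and 2 and 12.30 to 12.56 in WT. Its log2 change was -0.91 ± 0.18 (SE), with a 95% confidence interval of -1.33 to -0.50, and missed the threshold (limma adjusted p = 0.133). It was called under 6 of 18 other settings, including a fit with a lone KO array, and was below 0 in all 18. Across all 6 arrays it stood at -1.23.

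Pcx, the mitochondrial pyruvate carboxylase, had signals of 149, 201 and 84.6 on KO arrays 1, 2 and 3, against 335, 269 and 271 on WT arrays 1, 2 and 3. All KO signals were lower, but the KO mice differed from each other: relative to the WT mean the normalized log2 signal was -0.14 on KO array 1 and -0.97 on KO array 2. The log2 change of -0.55 ± 0.24 (SE) did not pass (limma adjusted p = 0.412), and across all 6 arrays, with KO array 3 on which it was not detected, it was -1.34 ± 0.70. A second Pcx probe was detected on 2 of 3 WT and 0 of 3 KO arrays and was not tested.

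Mdh1, the cytosolic malate dehydrogenase that returns oxaloacetate from malate, had signals of 318, 602 and 95.1 on KO arrays 1, 2 and 3, against 513, 618 and 479 on WT arrays 1, 2 and 3. KO array 2 lay among the WT values. Its log2 change was 0.37 ± 0.27 (SE; limma adjusted p = 0.598), with 0.73 on KO array 1 and 0.01 on KO array 2 relative to the WT mean, and it was 0.47 across all 6 arrays. A dimmer tested probe stood at -0.32 ± 0.19 (limma adjusted p = 0.511), the opposite sign, and 1 more was detected on 1 array and was not tested.

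Fbp1, fructose-1,6-bisphosphatase, removes a phosphate on the way to glucose. Its signals were 1340.3, 2764 and 172 on KO arrays 1, 2 and 3, against 3182, 3155 and 2654 on WT arrays 1, 2 and 3, so that KO array 2 lay within the WT range. The log2 change was 0.02 ± 0.21 (SE; limma adjusted p = 0.982), with a 95% confidence interval of -0.47 to 0.51. The change of Pck1 lies outside that interval, and across all 6 arrays Fbp1 stood at 0.28 ± 0.32. A probe deposited under the older name Fbp3, which RefSeq lists as a synonym of Fbp1, stood at -0.12 (limma adjusted p = 0.81).

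The last step was represented by G6pc and Slc37a4. G6pc encodes the catalytic subunit of glucose-6-phosphatase, which frees glucose in the endoplasmic reticulum. Its signals were 643, 2342 and 115 on KO arrays 1, 2 and 3, against 4107, 2388 and 3786 on WT arrays 1, 2 and 3. KO array 2 and WT array 2 nearly met, and after normalization the groups were 10.59 and 10.84 on KO arrays 1 and 2 and 11.58, 11.10 and 11.81 on WT arrays 1, 2 and 3. The log2 change of -0.78 ± 0.23 (SE; 95% confidence interval -1.32 to -0.25) did not pass (limma adjusted p = 0.29), and across all 6 arrays it was -0.71 ± 0.26. It was called under 0 of 18 other settings and lay below 0 in all 18.

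Slc37a4 carries glucose-6-phosphate into the endoplasmic reticulum. It had signals of 144, 303 and 85.8 on KO arrays 1, 2 and 3, against 244, 264 and 209 on WT arrays 1, 2 and 3. KO array 2 was the highest of all 6. The log2 change was 0.18 ± 0.20 (SE; limma adjusted p = 0.734) in the 5 arrays and -0.66 across all 6. On KO array 3, which only the second value includes, the probe was not detected, and its normalized log2 signal was 4.67, against 7.12 and 7.25 on KO arrays 1 and 2.

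Glycerol entry was represented by Aqp9, the hepatic channel that takes up glycerol, and by Gyk, the kinase that phosphorylates it (now named Gk). Gyk had signals of 170.2, 449 and 90.3 on KO arrays 1, 2 and 3, against 708, 570.1 and 737 on WT arrays 1, 2 and 3. All KO signals were lower than all WT signals. Its normalized log2 signal was 7.91 and 8.20 on KO arrays 1 and 2 and 8.89 to 9.34 in WT, a change of -0.997 ± 0.20 (SE; 95% confidence interval -1.46 to -0.54) that missed the threshold (limma adjusted p = 0.133). It was called under 3 of 18 other settings, including a fit with a lone KO array. It lay below 0 in all 18, and stood at -1.12 across all 6 arrays. Both other Gyk probes failed the detection filter.

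Aqp9 had signals of 1059.7, 3035 and 136 on KO arrays 1, 2 and 3, against 4204, 3720.3 and 3048 on WT arrays 1, 2 and 3. All KO signals were lower, but KO arrays 1 and 3 were dim as a whole. On KO array 2 the signal, 3035, was only just below the lowest WT signal, 3048. The log2 change was -0.38 ± 0.16 (SE; limma adjusted p = 0.411). Its 95% confidence interval was -0.76 to -0.00098, and across all 6 arrays the change was -0.29 ± 0.21 and the groups overlapped.

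Ppargc1a, the coactivator PGC-1alpha, supports transcription of Pck1 and G6pc in fasting. Its single probe under that name was dim, with signals of 104, 143 and 81.1 on KO arrays 1, 2 and 3, against 127, 173 and 123 on WT arrays 1, 2 and 3. KO array 2 exceeded 2 of the 3 WT arrays. The log2 change was -0.33 ± 0.34 (SE; limma adjusted p = 0.717), with a 95% confidence interval of -1.11 to 0.45, and across all 6 arrays it was -0.71 ± 0.47. Without WT replicate 2 it was 0.03. The interval holds changes of either sign, and the WT arrays spread from 5.47 to 6.62 on the log2 scale, highest on WT array 2.

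KO array 2 was as bright as the WT arrays, so its deposited signals can be set beside theirs before any normalization. Relative to the WT mean, the signal on that array was 0.429 and 0.55 times for the probes of Pck1. It was 0.656 times for Ldha, 0.668 for Gyk, 0.683 for G6pc and 0.69 for Pcx. It was 0.83 times for Aqp9 and 0.922 for Fbp1, and the ratio was above 1 for Ppargc1a, Mdh1 and Slc37a4, at 1.01, 1.12 and 1.27. The dimmer tested Mdh1 probe stood at 0.989. These signals still hold the background, which draws the ratios of dim probes toward 1. After background correction and normalization Ppargc1a on that array stood at -0.10 and Pcx at -0.97 on the log2 scale relative to the WT mean. Pck1 thus had the lowest ratio of the 10 on the bright KO array.

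The order of a probe within its own array gives a view that needs no scaling between arrays. Among 45281 probes the brightest Pck1 probe ranked 1926, 1439 and 17346 on KO arrays 1, 2 and 3, against 659, 668 and 574 on WT arrays 1, 2 and 3. The KO ranks on arrays 1 and 2 lay outside the WT range. G6pc ranked 737, 632 and 595 on KO arrays 1, 2 and 3, against 399, 535 and 345 on WT arrays 1, 2 and 3. Ldha ranked 446, 362 and 730 on KO arrays 1, 2 and 3, against 188, 233 and 186 on WT arrays 1, 2 and 3. On KO array 3 G6pc and Ldha thus still stood among the bright probes, while Pck1 was not detected there, so that its rank on that array has no exact meaning. Gyk ranked 3074, 2647 and 3474 on KO arrays 1, 2 and 3, against 1876, 1824 and 1474 on WT arrays 1, 2 and 3. Fbp1 ranked 377, 538 and 264 on KO arrays 1, 2 and 3, against 489, 403 and 475 on WT arrays 1, 2 and 3, with overlapping groups.

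**Figure D3:**
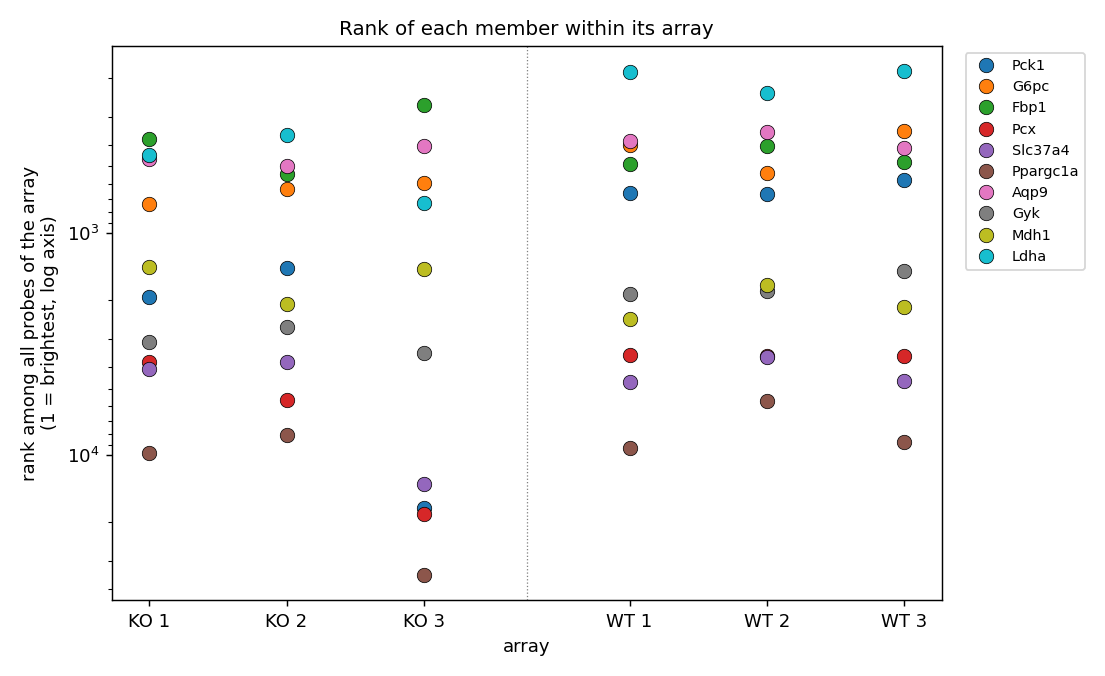
Rank of the brightest probe of each member among all 45281 probes of the array, on a log axis with the brightest at the top, KO arrays left of WT arrays. Pck1 ranks 574 to 668 on the WT arrays and 1926 and 1439 on KO arrays 1 and 2, and ranks on KO array 3 have no exact meaning for Pck1, Pcx, Slc37a4 and Ppargc1a, which were not detected there, while Fbp1 ranks 264 to 538 on the KO arrays and 403 to 489 on the WT arrays.

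Groups that do not overlap after normalization of the 5 arrays were found for 6 of the 10 members, all lower in KO (Pck1, G6pc, Pcx, Aqp9, Gyk and Ldha), and 0 higher. Of all genes tested, 15.3% were lower and 14% higher by this rule. In all 6 arrays the counts were 5 of 10 lower and 0 higher, beside 12.1% and 4.75% of all genes.

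Other genes of the pathway were taken from lists. Of 30 further gluconeogenic, shuttle and glycerol channel genes 22 were tested, with a median log2 change of -0.02. Limma called 0 higher and 0 lower, while 1 was higher and 2 were lower without adjustment at p below 0.05. Among all genes 4.95% were higher and 7.02% lower at that p. The values with the smallest p were -0.54 ± 0.22 (SE) for Slc25a12, an aspartate-glutamate carrier, 0.73 ± 0.30 for the serine dehydratase Sds, -0.44 ± 0.19 for the mitochondrial pyruvate carrier subunit Mpc2 and -0.31 ± 0.17 for Slc25a13, the other aspartate-glutamate carrier. Their limma adjusted p ran from 0.393 to 0.495. All 4 thus missed the threshold. With all 6 arrays Slc25a12 stood at -0.52, Sds at 0.51, Mpc2 at -0.57 and Slc25a13 at -0.79.

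Of 36 regulators 27 were tested, with a median log2 change of -0.14. At p below 0.05 by limma before adjustment 0 were higher and 4 lower, beside 4.95% and 7.02% of all genes. After adjustment 0 were called higher and 1 was called lower, beside 0.0696% and 0.269% of all genes. The 1 was Ppara, a nuclear receptor of the fasting response, at -1.24 ± 0.17 (SE; limma adjusted p = 0.0345) and at -1.25 across all 6 arrays (limma adjusted p = 0.653). Its signals were 96.0, 102.7 and 77.5 on KO arrays 1, 2 and 3, against 144, 127 and 131 on WT arrays 1, 2 and 3, with the KO signals close to the medians of all probes, 83.7 to 95.02 on those arrays. It was called under 5 of 18 other settings, including a fit with a lone KO array. Its log2 change was -0.58 with normexp without negative controls, -0.42 without background correction and -0.37 with the authors' values. Without WT replicate 1, 2 or 3 its limma adjusted p was 0.191, 0.15 and 0.207. Irs2, an adaptor of the insulin receptor, stood at -1.08 ± 0.30 (limma adjusted p = 0.252), the glucagon receptor Gcgr at -0.56 ± 0.20 (limma adjusted p = 0.355) and the pseudokinase Trib3 at -0.53 ± 0.20 (limma adjusted p = 0.373). With all 6 arrays Irs2 stood at -0.94, Gcgr at -0.10 and Trib3 at -1.03.

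A list of glycolysis and pyruvate dehydrogenase genes held enzymes and both activating and inactivating regulators, so its median mixes opposing roles. Of 19 listed 13 were tested, with a median of -0.18. By limma 0 were called higher and 0 lower. Without adjustment 1 was higher and 2 lower at p below 0.05, beside 4.95% and 7.02% of all genes. Gckr stood at 0.86 ± 0.26 (SE; limma adjusted p = 0.298) in the 5 arrays and -0.53 across all 6. Pdp2, a pyruvate dehydrogenase phosphatase, stood at -0.65 ± 0.18 (limma adjusted p = 0.267), Dlat, a subunit of that complex, at -0.61 ± 0.22 (limma adjusted p = 0.362) and Pdk2, a kinase that inactivates it, at -0.49 ± 0.23 (limma adjusted p = 0.451). With all 6 arrays Pdp2 stood at -1.71, Dlat at -0.26 and Pdk2 at -0.93. All of the values named here missed the threshold.

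**Figure D4:**
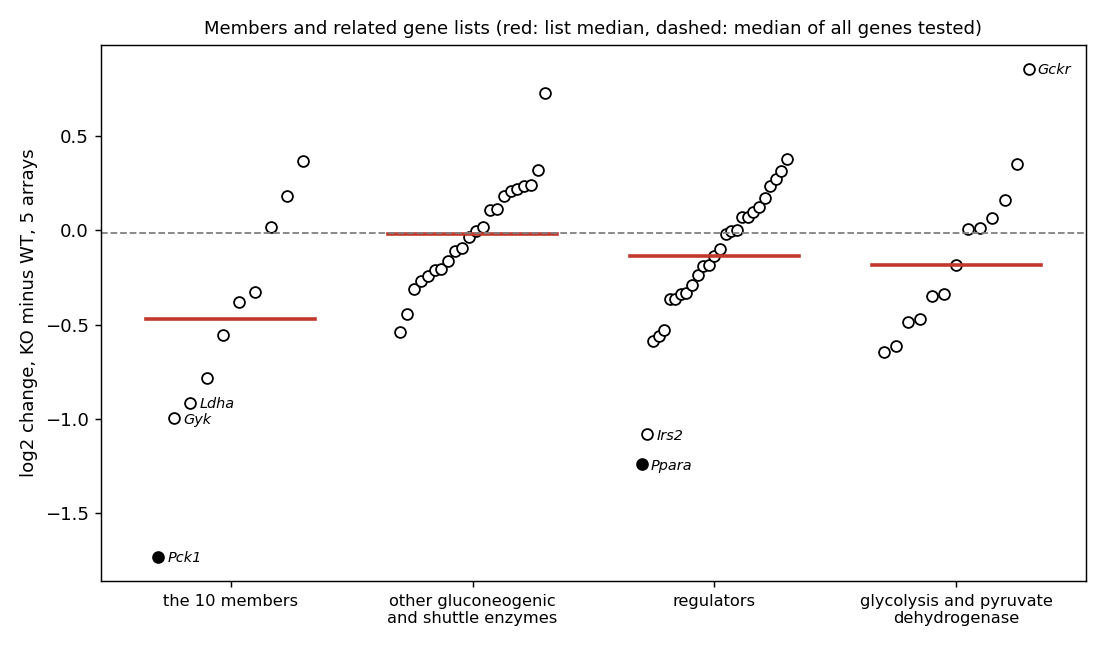
Log2 change, KO minus WT, in the 5 arrays for the 10 members and 3 related lists, each point a gene at its brightest tested probe, filled where the adjusted p was under 0.05. Red lines are list medians, -0.47, -0.02, -0.14 and -0.18 from left to right, and the dashed line is the median of all genes, -0.01.

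Cell type markers were measured beside these results, since in whole liver fewer cells of a type and less RNA per cell cannot be told apart. Of 83 marker genes in 12 lists 47 were tested, and limma called 0 higher and 0 lower. Before adjustment 5 were higher and 5 lower at p below 0.05, beside 4.95% and 7.02% of all genes. Hepatocyte markers were detected throughout, 9, 10 and 8 of 11 on KO arrays 1, 2 and 3 and 9 to 11 on the WT arrays. Their summed normalized signals were 118782 and 122094 on KO arrays 1 and 2, against 135116 to 137087 on the WT arrays, without overlap. Cyp2e1 and Trf were the 2 hepatocyte markers lower at p below 0.05 by limma before adjustment. Without them the sums were 82634 and 85052 on KO arrays 1 and 2, against 84818 to 87773 on the WT arrays, and the groups overlapped. Because these genes were picked for carrying the difference, with other bright markers kept, this overlap does not test it. Of the 9 hepatocyte markers tested 3 lay above 0, and their median log2 change was -0.04. Summed normalized signals of the periportal hepatocyte list, whose zone is the richer in gluconeogenesis, were 40117 and 33931 on KO arrays 1 and 2, against 31088, 37379 and 30234.5 on WT arrays 1, 2 and 3. The groups overlapped, while those of the pericentral list did not, with 25649 and 23374 on KO arrays 1 and 2, against 32970.1, 34089.6 and 31184 on WT arrays 1, 2 and 3. Without Cyp2e1, which is in both the hepatocyte and the pericentral list, the pericentral sums overlapped, at 6608 and 5436 on KO arrays 1 and 2, against 6113.5, 8625 and 6712 on WT arrays 1, 2 and 3. Cyp2e1 was not the only lower gene of that list. Of its 6 markers tested, 6 lay below 0, beside 52.2% of all genes, with a median log2 change of -0.24. Slc1a2 stood at -0.61 ± 0.25 (SE; limma adjusted p = 0.394). The part of these differences in the results above was not tested. Adipocytes, which also express Pck1, gave 0 of 6 markers that passed the filter, and Plin1, Cfd, Retn and Cidea were detected on no array. The remaining 2, Adipoq and Lep, were detected on KO array 1. On KO array 3 1 of 6 was detected, and on KO array 2 and the WT arrays 0. The list summed to 158 and 116 on KO arrays 1 and 2, against 116 to 128 on the WT arrays.

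The Kupffer cell and macrophage list summed to 1371 and 1521 on KO arrays 1 and 2, against 1233 to 1389 on the WT arrays, the endothelial list to 719 and 917 against 638 to 705, and the stellate list to 4036 and 4706 against 3903 to 4288. Cholangiocyte markers summed to 639 and 708 in KO against 443 to 665 in WT, with Krt19, Krt7, Epcam and Cftr detected on no array. Lymphocyte markers summed to 167 and 145 in KO against 123 to 143 in WT, neutrophil markers to 128 and 266 against 121 to 132, and pancreatic acinar markers to 246 and 190.4 against 188 to 226. Erythroid markers summed to 9275 and 23339 in KO against 21508 to 26257 in WT, lowest on KO array 1. The part of these cells in the results above was not tested.

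The genes whose profile over the 5 arrays lay nearest to Pck1, by Euclidean distance between log2 profiles centred on their means among 10054 other genes, were Elovl5, Csrp3 and Atrn, at distances of 0.206, 0.266 and 0.275. Elovl5 is a fatty acid elongase, and its log2 signal was 10.58 and 11.17 on KO arrays 1 and 2, against 12.69, 12.74 and 12.95 on WT arrays 1, 2 and 3. Among the other members Gyk was nearest to Pck1, at rank 36 of those genes with a distance of 0.846, followed by Ldha at rank 46 and G6pc at rank 133. Mdh1 was the farthest, at rank 9515. All these profiles share the same 5 arrays and their scaling. The distance contains the gap between KO and WT, so these ranks in part restate the log2 changes and are no separate support.

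**Figure D5:**
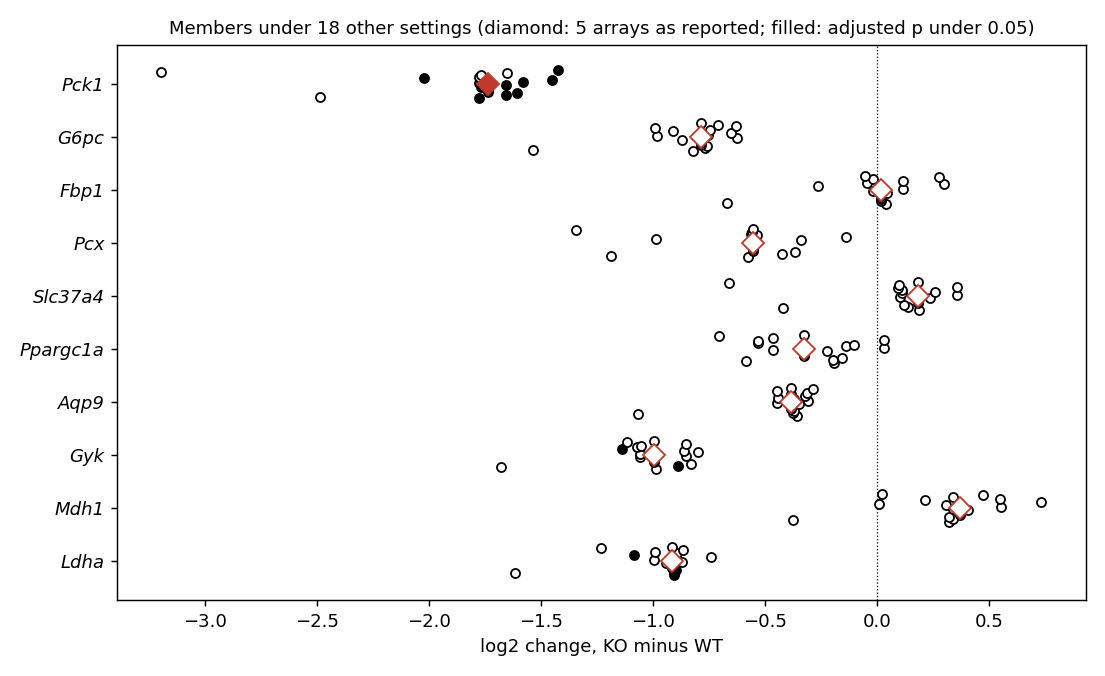
Log2 change, KO minus WT, of each member in the 5 arrays as reported (red diamond) and under 18 other settings (circles), filled where the adjusted p was under 0.05. Pck1 stays between -3.19 and -1.43 and is filled in 12 settings, Ldha in 6 and Gyk in 3, each count including fits with a lone KO array. Fbp1, Slc37a4, Ppargc1a and Mdh1 have circles on both sides of 0.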

How the data were processed

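Total RNA of each liver was amplified to biotinylated cRNA, per the labels' protocols, and hybridised to 1 bead array per mouse. The deposited array tables hold, per the file headers, an average signal per probe, an intensity on a linear scale whose values show no normalization and no background subtraction, and a detection p-value computed by the authors' software, BeadStudio 3 per the submitters' processing notes. The authors' deposited value table holds quantile-normalized intensity values by comparison with the arrays, with medians of 91.6 to 91.7, on a linear scale, uncentred, by a method not given in the sources used here. Its WT columns 2 and 3 matched arrays 3 and 2, so which of these mice is which is uncertain, and it served as an alternative.

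Signals were processed in R 4.3.3 with limma 3.58.1 by neqc (negative controls inferred from detection p, offset 16, quantile normalization, log2). Kept were probes detected (p below 0.05) on 3 or more arrays, 14345 for 5 arrays and 14494 for 6, each set normalized on its own. The model (lmFit, eBayes, two-sided) held genotype alone, with Benjamini-Hochberg adjustment over kept probes and calls at an adjusted p under 0.05. A gene is represented by its kept probe with the highest mean signal. Symbols were updated through GRCm38.p6 (27740 current, 8037 by synonym, 9504 unmatched). Members, lists, motifs and the use of 5 arrays were chosen with earlier results of these data known. Named were all members, Creb3l3, the 4 genes with the smallest p per pathway list and the 3 genes nearest to Pck1. The fit was tested on simulated data. The 18 other settings changed the background correction, normalization, filter, variance model, array weights, probe choice, replicate block, value table or the mice included. Figures were drawn with matplotlib 3.10.9. Each group has 3 arrays, of separate mice, which limits the precision. The 5-array fit, which gave the calls reported above, holds only 2 KO mice. Of the listed genes, 1 is not reported here and was left out of its list. Marker sums without Cyp2e1 and Trf were added after seeing the data.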

Additional observations from a re-analysis of the deposited data

How the results depend on the processing

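With 5 arrays 9 probes were called higher and 40 lower. Cyclic loess gave 25 higher, median scaling 0 and 4 lower, normexp without controls 29 and 80, no background correction 20 and 65, no filter 0 and 1, a trended robust variance 30 and 92, array weights 26 lower, 18 and 65 with the authors' values, and all 6 arrays 0 and 0. Leaving out 1 mouse gave 1 to 787 higher and 7 to 1447 lower, the most without KO replicate 2. Median scaling moved the median log2 change of all probes to -0.42. With 6 arrays 0 were called in either direction, where p below 0.05 before adjustment gave 80 higher and 478 lower. A trended robust variance gave 1 and 4 there, cyclic loess 3 lower, array weights 1030 and 1802, and leaving out 1 mouse 0 to 9 higher and 0 to 40 lower, the most without KO replicate 3. Of the members, 1 was called lower. This count was 2 under cyclic loess, no background correction and the authors' values, and 3 under normexp without controls and a trended robust variance. It was 0 under median scaling, no filter and all 6 arrays, and 0 without any 1 of the WT mice. Pck1, G6pc, Pcx, Aqp9, Gyk and Ldha kept their direction under all 18 settings. Fbp1 reversed under median scaling (-0.67), with a replicate block (-0.019), without KO replicate 1 (-0.26, against 0.30 without KO replicate 2), without WT replicate 1 (-0.046) or 3 (-0.017) and as a mean over probes (-0.052). Slc37a4 reversed under median scaling (-0.42) and with 6 arrays (-0.66), Mdh1 under median scaling (-0.37), Gckr with 6 arrays (-0.53), and Ppargc1a without WT replicate 2 (0.032) and with the block in which WT replicates 2 and 3 were exchanged (0.032). The cause was not tested. Whether replicate numbers pair the mice is not settled. Deviations of same-numbered mice from their group means correlated at -0.045, -0.048 and 0.037, and those of other pairs at -0.041 to 0.075. The dim KO array 3 enters every KO mean there, and which mice WT 2 and 3 are is uncertain. These values therefore cannot tell whether the mice were paired. The replicate block gave 13 higher and 34 lower, its exchanged form 15 and 41, and Pck1 stood at -1.66 with the block (limma adjusted p = 0.0101). Ppargc1a and Ppara had dim probes, and what limits them was not tested.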
